A study of Mus musculus with 2 samples.

Results

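The genes described here are 10 genes of arginine and polyamine metabolism: Ass1, Asl, Arg1, Arg2, Odc1, Srm, Sms, Amd1, Sat1 and Azin1. They were taken by name, through their Ensembl identifiers, from a table of read counts for 45318 mouse genes, and all 10 had a row. The 10 were chosen by function, with their counts and their brequinar over vehicle ratios in these same libraries already known, so every value below is a description and none is tested. The material was GFP-positive leukaemia cells driven by MLL/AF9 (an oncogenic fusion found in acute myeloid leukaemia) and sorted from the bone marrow of leukaemic C57Bl/6 mice. One group of mice had been given brequinar, a small-molecule inhibitor of the pyrimidine synthesis enzyme Dhodh in mitochondria, and the other had been given vehicle. Both groups carried the same fusion and the same GFP sort mark, and each was read as 1 library. The sources used here do not give the dose, the duration, the age of the mice or how many mice went into a library.

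Arginine can be made from citrulline by argininosuccinate synthase (Ass1) and argininosuccinate lyase (Asl), or taken up through cationic amino acid transporters. Arginases (Arg1, Arg2) split it into urea and ornithine. Ornithine decarboxylase (Odc1) turns ornithine into putrescine, and spermidine synthase (Srm) and spermine synthase (Sms) add aminopropyl groups that come from decarboxylated S-adenosylmethionine, the product of S-adenosylmethionine decarboxylase (Amd1). Antizymes send ornithine decarboxylase to the proteasome, and antizyme inhibitor (Azin1) holds antizymes off. Spermidine/spermine acetyltransferase (Sat1) starts the way back from spermine and spermidine. In leukaemia and other tumours, cells low in Ass1 depend on arginine from outside, and polyamine synthesis is a known output of Myc.

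Gene counts summed to 47950714 in the brequinar library and 47935476 in the vehicle library. Levels are CPM, a gene's counts relative to the library's total after TMM scaling, and ratios are brequinar over vehicle. Calls, medians and ranks cover the 11504 genes whose 2 CPM values averaged 1 or more, and a gene was called at 2-fold or more. Of all these genes 4.40% were called lower and 6.45% higher in the brequinar library. For some genes below this filter a fold is given beside the counts, without a call. With 1 library a group there is no replicate error, no p-value is given, and the 95% intervals (Clopper-Pearson for ratios, exact Poisson for levels) cover counting error only. The reads were amplified and carry no molecular tags, so these intervals can be too narrow. In sorted bulk cells, fewer cells of a type and less RNA per cell cannot be told apart. The leukaemia genes Hoxa9 (230.6 CPM in the brequinar library, 238 CPM in the vehicle library) and Meis1 (87.4 CPM in the brequinar library, 71.6 CPM in the vehicle library) were present in both.

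Of the 10 genes, 8 passed the filter, 1 of these (Ass1) was at least 2-fold lower in the brequinar library, and none was higher by that much. The median log2 ratio of the 8 was -0.15, beside 0.00 over all 11504 genes. Of the 8, 5 were below 0 and 3 above, beside 5746 below and 5758 above over all genes. The 6 genes that make, guard or acetylate polyamines (Odc1, Amd1, Srm, Sms, Azin1 and Sat1) lay between -0.21 and 0.16 on the log2 ratio scale. Together these 6 stood at 1001 CPM in the brequinar library and 1013 CPM in the vehicle library. The larger differences were on the arginine side, in Ass1 and, at a very low level, in Arg2.

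**Figure D1:**
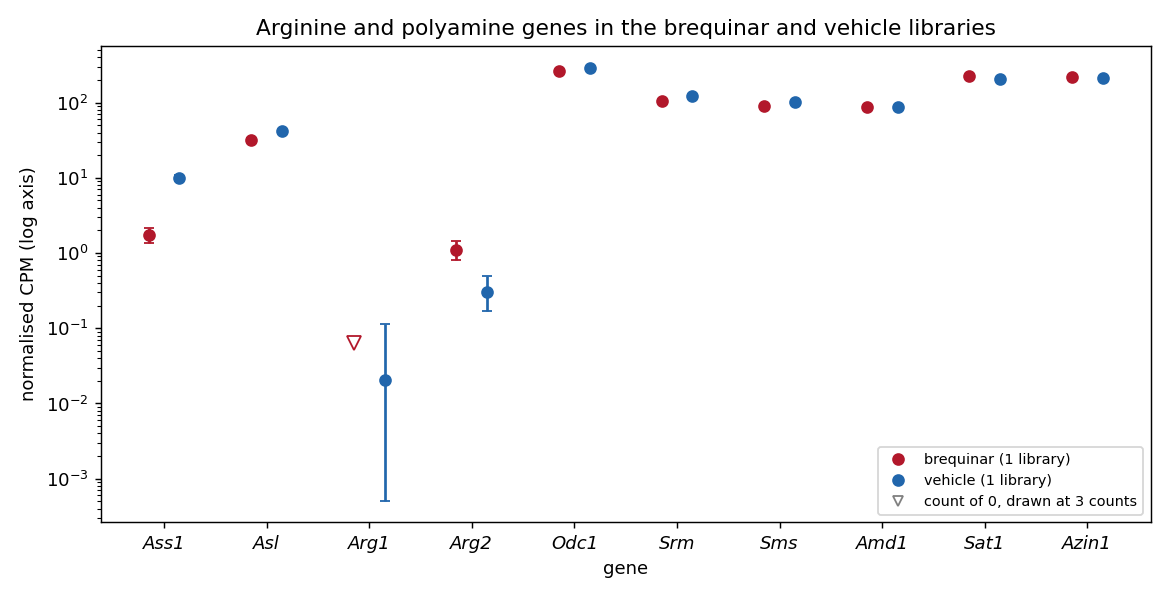
Normalised CPM (log axis) of each of the 10 genes in the brequinar library (red, left of each pair) and the vehicle library (blue, right), 1 library each. Bars are exact 95% Poisson intervals for counting error, hidden by the point where they are short, and an open triangle marks a count of 0 drawn at 3 counts. Ass1 stands at 1.72 and 9.88 CPM and Arg2 at 1.10 and 0.303 CPM (brequinar, then vehicle), while each of the 6 polyamine genes is nearly level between the libraries.

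Ass1, which joins citrulline to aspartate and is usually the limiting step of arginine synthesis from citrulline, had 80 counts in the brequinar library and 489 counts in the vehicle library. These are 1.72 CPM in the brequinar library and 9.88 CPM in the vehicle library. Ass1 was thus 5.74-fold lower after brequinar (interval 4.52 to 7.36), with a log2 ratio of -2.49. It ranked 54th from the lowest ratio among the 11504 genes. The gene (ENSMUSG00000076441.6) lies on chromosome 2 from 31470207 to 31520672 on the plus strand (GRCm38). Of the 50-base words in its annotated transcripts, 38.6% also occur in Gm5424 on chromosome 10, which had 0 counts in the brequinar library and 9 in the vehicle library. Multimapping reads are listed apart from the gene counts, so the level of Ass1 is uncertain. With the counts of both loci added, Ass1 was 5.84-fold lower (interval 4.61 to 7.50). This sum does not bring back the multimapping reads.

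Asl, which splits argininosuccinate into arginine and fumarate, stood at 31.7 CPM in the brequinar library and 41.8 CPM in the vehicle library. Its counts were 1473 in the brequinar library and 2068 in the vehicle library. That is 1.32-fold lower (interval 1.23 to 1.41), within 2-fold. Within a library, where scaling drops out, there were 0.0543 Ass1 counts for each Asl count in the brequinar library and 0.237 in the vehicle library. This ratio of the 2 genes was 4.35-fold lower after brequinar (interval 3.40 to 5.64). The pairs of genes set against each other in this way were chosen after their values were seen.

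The start of Ass1 is shown here because this gene had the largest difference of the 10. RefSeq windows of 250 bases before a start (GRCm38.p6) were found for 5 of the 10 genes, in 6 windows. The E-box CACGTG, the letters that Myc with Max and several related factors can bind, was searched on both strands (it reads the same on each). It occurred in 2 of the 6 windows, those of Ass1 and of one start of Sms, beside 6.02% of 32851 windows of all genes. Both matches are given with 12 bases on each side, 5′ to 3′ on the strand of the gene, the E-box in capitals.
Ass1 (chr2:31470222-31470251, plus strand): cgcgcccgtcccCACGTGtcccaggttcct
Sms (chrX:157492466-157492495, minus strand): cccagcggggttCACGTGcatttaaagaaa
The Ass1 match begins 36 bases before the RefSeq start and lies inside an exon of the longer GENCODE gene model, and the Sms match begins 196 bases before a RefSeq start. The GC box GGGCGG, searched on both strands, occurred in 5 of the 6 windows, beside 32.7% of all windows. The letters TATAAA, also searched on both strands, were in 0 of the 6 windows, beside 12.4% of all, and CCAAT or its complement was in 1 of the 6, that of Sms, beside 33.8%. None of these motifs overlaps the E-box. Ass1 and Sms, which share the E-box letters, had log2 ratios of -2.49 and -0.19. A match describes the letters and shows no binding. Myc itself stood at 97.5 CPM in the brequinar library and 118 CPM in the vehicle library, 1.21-fold lower (interval 1.16 to 1.25).

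Arg1, the cytosolic arginase of liver and of some activated macrophages, had 0 counts in the brequinar library and 1 count in the vehicle library. Both are at or under 3 counts, which is 0.0646 CPM in the brequinar library and 0.0606 CPM in the vehicle library, so no fold is given. Arg1 was in effect undetected in either library at this depth. Arg2, the mitochondrial arginase, had 51 counts in the brequinar library and 15 counts in the vehicle library. These are 1.10 CPM in the brequinar library and 0.303 CPM in the vehicle library, 3.62-fold higher after brequinar (interval 2.0 to 6.94). Its mean of 0.701 CPM is below the filter, so it is not among the called genes. Exons of Arg2 also share 285 bases with those of Vti1b on the opposite strand, 20.0% of its exon length, and the strand setting of the counting is not given. Vti1b, a vesicle fusion gene, stood at 48.8 CPM in the brequinar library and 37.6 CPM in the vehicle library, 1.30-fold higher (interval 1.22 to 1.38). Ambiguous reads were listed apart from the gene counts, 1.12% of reads in the brequinar library and 1.23% in the vehicle library. Whether reads of Vti1b in the shared bases were set aside in this way was not tested.

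Markers of maturing neutrophils and of other cell types also differed between the libraries, in directions that varied with the list. Whether they come from the leukaemia cells or from other cells cannot be told apart in these bulk libraries. Over all genes, 6.45% were called higher and 4.40% lower. Of 12 measured genes of maturing neutrophils, all 12 were called higher after brequinar. The 12 summed to 25309 CPM in the brequinar library and 1855 CPM in the vehicle library. Of 12 tissue macrophage genes that passed the filter, 10 were higher and none lower, with sums over all 15 listed genes of 5870 CPM in the brequinar library and 1115 CPM in the vehicle library. Chil3, which maturing neutrophils also express, made 4890 CPM of this sum in the brequinar library and 469 CPM in the vehicle library, and without it the sums were 979 CPM in the brequinar library and 647 CPM in the vehicle library. Most of these sums came from Adgre1 and Vcam1, both within 2-fold. Adgre1 stood at 225 CPM in the brequinar library and 221 CPM in the vehicle library. Vcam1 stood at 496 CPM in the brequinar library and 370 CPM in the vehicle library. Among the higher genes, C1qa stood at 8.16 CPM in the brequinar library and 0.990 CPM in the vehicle library. Mrc1 stood at 9.99 CPM in the brequinar library and 0.647 CPM in the vehicle library. Of 12 erythroid genes past the filter 11 were higher, with a summed level over 13 genes of 477 CPM in the brequinar library and 244 CPM in the vehicle library. T and NK cell genes summed to 2.99 CPM in the brequinar library and 1.01 CPM in the vehicle library, and 1 endothelial gene of 9, Pecam1, passed the filter (6.76 CPM in the brequinar library, 25.1 CPM in the vehicle library). Of 8 eosinophil, basophil and mast cell genes past the filter 2 were higher and 1 lower, with sums of 241 CPM in the brequinar library and 215 CPM in the vehicle library, and of 4 B cell genes 1 (Vpreb1) was higher and 1 (Cd79b) lower. The 6 listed B cell genes summed to 17.7 CPM in the brequinar library and 31.5 CPM in the vehicle library, of which Cd79b made 9.86 CPM in the brequinar library and 26.2 CPM in the vehicle library. Of the 8 leukaemia and myeloid identity genes 1 (Itgam) was higher and 3 (Kit, Cd34 and Mpo) were lower. No marker of these lists was at 0 in both libraries. Any link of these markers to the Ass1 and Arg2 differences was not tested.

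Odc1, ornithine decarboxylase, stood at 267 CPM in the brequinar library and 288 CPM in the vehicle library, 1.08-fold lower (interval 1.05 to 1.10). Srm, spermidine synthase, stood at 106 CPM in the brequinar library and 122 CPM in the vehicle library, 1.15-fold lower (interval 1.11 to 1.20). Sms, spermine synthase, stood at 89.8 CPM in the brequinar library and 102 CPM in the vehicle library, 1.14-fold lower (interval 1.09 to 1.19). These 3 enzymes lay a little below 0 under each of the 4 scalings run (log2 ratios of -0.20 to -0.11 for Odc1, -0.30 to -0.21 for Srm and -0.28 to -0.19 for Sms). Amd1 stood at 88.5 CPM in the brequinar library and 87.5 CPM in the vehicle library. Its log2 ratio of 0.02 turned to -0.07 with scaling by total counts, where the median of all genes was -0.09. The 4 enzymes summed to 552 CPM in the brequinar library and 599.6 CPM in the vehicle library, a ratio of 0.920 (interval 0.905 to 0.936).

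Srm and Sms, the 2 aminopropyl transferases, kept nearly the same proportion. There were 0.845 Sms counts for each Srm count in the brequinar library and 0.834 in the vehicle library, and the ratio of the libraries was 1.01 (interval 0.959 to 1.07). Amd1 against Odc1 was 0.331 in the brequinar library and 0.304 in the vehicle library, 1.09-fold higher (interval 1.04 to 1.14). Copies leave some of these levels uncertain, since 78.1% of the 50-base words of Amd1 transcripts occur in other genes, mostly Amd2, and 24.3% of those of Odc1 and 17.5% of those of Sms do. The copies carried few counts, with 46 for Amd2 in the brequinar library and 37 in the vehicle library. Multimapping reads are held apart from the gene counts, so few counts of a copy do not show that it is little expressed. With copies added, the log2 ratios were 0.03 for Amd1, -0.10 for Odc1 and -0.19 for Sms. These sums leave out the multimapping reads too.

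**Figure D2:**
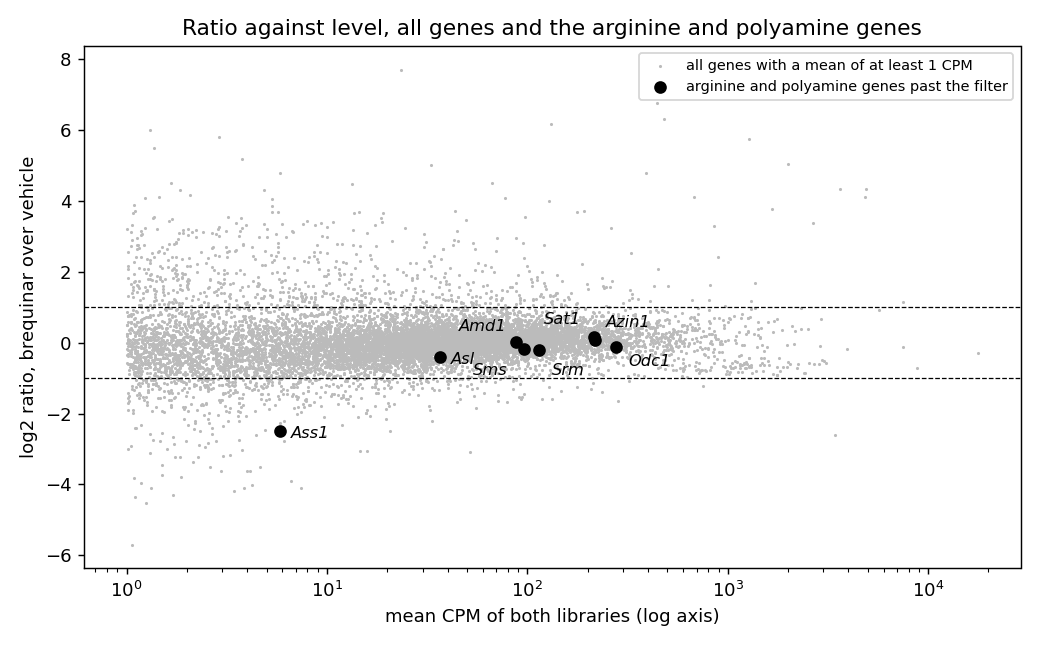
Log2 ratio of brequinar over vehicle against mean CPM (log axis) for all 11504 genes past the filter (grey) and the 8 arginine and polyamine genes among them (black, named). Dashed lines mark 2-fold. Ass1 at -2.49 lies well below the lower line, Asl at -0.40 lies inside it, and the 6 polyamine genes lie between -0.21 and 0.16.

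Azin1, the antizyme inhibitor, a homologue of ornithine decarboxylase without its catalytic activity, stood at 222 CPM in the brequinar library and 211 CPM in the vehicle library. Its log2 ratio of 0.08 turned to -0.01 with scaling by total counts, so its sign depends on the scaling. With that scaling the median of all genes was -0.09. Oaz1, the main antizyme, stood at 476 CPM in the brequinar library and 436 CPM in the vehicle library, 1.09-fold higher (interval 1.07 to 1.11). Oaz2, a second antizyme, stood at 41.1 CPM in the brequinar library and 41.9 CPM in the vehicle library. Azin2, the other antizyme inhibitor, stood at 1.55 CPM in the brequinar library and 1.25 CPM in the vehicle library. There were 0.562 Odc1 counts for each Oaz1 count in the brequinar library and 0.660 in the vehicle library, 1.18-fold fewer (interval 1.14 to 1.21). Odc1 against Azin1 was 1.20 in the brequinar library and 1.36 in the vehicle library, 1.14-fold lower (interval 1.10 to 1.18). None of the 4 measured genes of the antizyme system was called.

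Sat1, the acetyltransferase that marks spermidine and spermine for oxidation or export, stood at 227 CPM in the brequinar library and 203 CPM in the vehicle library. It was 1.12-fold higher (interval 1.09 to 1.15), and its log2 ratio lay between 0.07 and 0.16 over the 4 scalings. Sat1 against Odc1, a gene of breakdown against one of synthesis, was 0.850 in the brequinar library and 0.707 in the vehicle library, 1.20-fold higher (interval 1.16 to 1.25).

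The 2 polyamine oxidases that act around Sat1 differed in opposite directions. Smox, which oxidises spermine directly to spermidine, had 429 counts in the brequinar library and 135 counts in the vehicle library. It stood at 9.23 CPM in the brequinar library and 2.73 CPM in the vehicle library, 3.38-fold higher (interval 2.78 to 4.14). Paox, the peroxisomal oxidase of the acetylated polyamines that Sat1 makes, had 401 counts in the brequinar library and 994 in the vehicle library. It stood at 8.63 CPM in the brequinar library and 20.1 CPM in the vehicle library, 2.33-fold lower (interval 2.07 to 2.62). Within a library there were 1.07 Smox counts for each Paox count after brequinar and 0.136 after vehicle, a 7.87-fold difference (interval 6.25 to 9.94). Of the 50-base words in Paox transcripts 28.5% occur in other genes, mostly Gm19680, which had 7 counts in the brequinar library and 23 in the vehicle library. The neutrophil, macrophage and erythroid markers given above were higher in the library where Smox was higher, and their part in the Smox and Paox differences was not tested.

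Per kilobase of annotated exons, the 10 genes spanned a wide range and, apart from Ass1, fell into the same broad tiers in both libraries. In the brequinar library Sat1 (81.8 CPM per kilobase), Odc1 (78.5) and Srm (66.4) were highest, followed by Azin1 (35.5), Amd1 (25.0) and Sms (14.9). In the vehicle library the leading 3 were Odc1 (84.4 CPM per kilobase), Srm (76.6) and Sat1 (73.3), and Srm and Sat1 did not differ beyond their counting intervals. Azin1 (33.7), Amd1 (24.7) and Sms (17.0) followed there in the same sequence. Asl stood at 6.56 CPM per kilobase in the brequinar library and 8.65 in the vehicle library, below all 6 polyamine genes in each. Ass1 stood at 0.713 CPM per kilobase in the brequinar library, where it did not differ from Arg2 (0.769) beyond the counting intervals, and at 4.09 in the vehicle library, well above Arg2 (0.212). Arg1 was lowest in both. Multimapping reads are held apart, so genes that share more sequence with copies may read too low in this order. Other genes hold 78.1% of the 50-base words of Amd1, 38.6% of Ass1, 24.3% of Odc1 and 17.5% of Sms. For Azin1, Sat1 and Srm the shares are 4.83%, 2.72% and 2.01%. The share of Azin1 lies in Gm49077, an antisense gene that overlaps it on the opposite strand, and not in a copy elsewhere. The order of Sat1, Odc1 and Srm and that of Amd1 and Sms in the vehicle library, and that of Arg2 and Ass1 in the brequinar library, turned with the length used: with the longest transcript Sat1 led in both (168 CPM per kilobase in the brequinar library, 150.3 in the vehicle library).

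**Figure D3:**
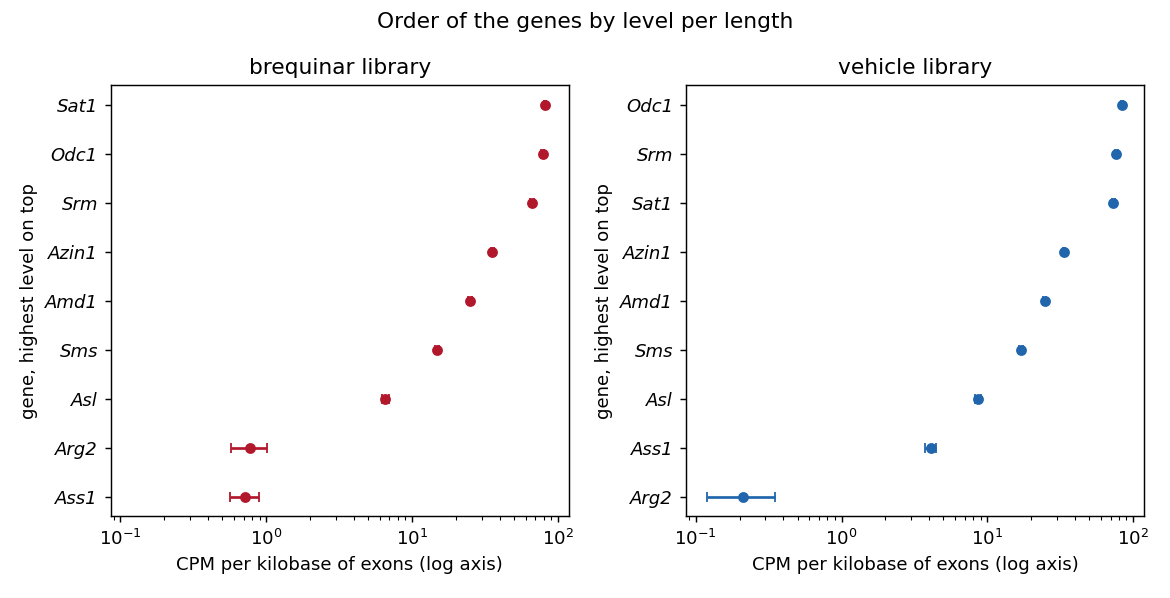
CPM per kilobase of annotated exons (log axis) for 9 of the 10 genes, ordered within the brequinar library (left) and the vehicle library (right). Bars are exact 95% Poisson intervals for counting error, and Arg1, with 0 counts in the brequinar library and 1 in the vehicle library, is not drawn. Ass1 is at 0.713 beside Arg2 at 0.769 in the brequinar library and at 4.09 above Arg2 at 0.212 in the vehicle library.

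The wider pathway was described through 10 lists of genes, which hold the 10 genes too where they belong. Outside the 10, 56 list genes passed the filter, of which 5 were at least 2-fold lower (8.93%, beside 4.40% of all genes) and 3 at least 2-fold higher (5.36%, beside 6.45%). Their median log2 ratio was -0.15, with 40 of 56 below 0, beside a median of 0.00 and 5746 of 11504 below 0 over all genes. The lower genes were Ddah2, Gamt, Pycr1, Paox and Padi2, and the higher ones were Smox, Padi3 and Padi4. Prmt1 was not matched by its identifier and has no value here.

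Arginine uptake had 0 of 6 measured genes called. Slc7a1, the main cationic amino acid transporter of proliferating cells, stood at 143 CPM in the brequinar library and 148 CPM in the vehicle library. Slc3a2, the heavy chain shared by several amino acid exchangers, stood at 103 CPM in the brequinar library and 114 CPM in the vehicle library. The members with the largest log2 ratios were Slc7a6 (-0.20), Slc7a2 (0.17) and Slc38a9, a lysosomal arginine sensor (-0.17).

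In the urea cycle and ornithine list 1 of 6 measured genes, Ass1, was called lower, beside 4.40% of all genes. Nags, Cps1 and Otc, mitochondrial enzymes that serve citrulline synthesis in liver, had 0 counts in both libraries. Oat, which links ornithine to proline and glutamate, stood at 117 CPM in the brequinar library and 120 CPM in the vehicle library. Slc25a15, which carries ornithine into mitochondria, stood at 12.4 CPM in the brequinar library and 19.5 CPM in the vehicle library, 1.58-fold lower and within 2-fold.

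The proline branch had the lowest median log2 ratio of the 10 lists, -0.72, with 5 of 6 genes below 0. In it 1 gene was called lower, beside 4.40% of all genes. That gene was Pycr1, a mitochondrial pyrroline-5-carboxylate reductase, at 1.49 CPM in the brequinar library and 6.37 CPM in the vehicle library. Its counts were 69 in the brequinar library and 315 in the vehicle library, 4.29-fold lower (interval 3.29 to 5.65). Pycrl, the cytosolic reductase, stood at 24.6 CPM in the brequinar library and 41.4 CPM in the vehicle library, and Prodh, which oxidises proline, at 22.6 CPM in the brequinar library and 37.7 CPM in the vehicle library.

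Among nitric oxide, creatine and agmatine genes 2 of 6 were called, both lower, beside 4.40% of all genes called lower. Ddah2, a hydrolase of methylarginines, stood at 0.969 CPM in the brequinar library and 2.65 CPM in the vehicle library, 2.73-fold lower (interval 1.93 to 3.92). Gamt, which completes creatine synthesis, stood at 2.45 CPM in the brequinar library and 5.13 CPM in the vehicle library, 2.09-fold lower (interval 1.67 to 2.63). The intervals of Ddah2 and Gamt reach inside 2-fold. Nos2, the inducible nitric oxide synthase, had 2 counts in the brequinar library and 0 in the vehicle library, at or under 3 counts in both.

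The methionine and hypusine lists had no calls. In the methionine cycle and salvage list 0 of 11 measured genes were called, with 9 of 11 below 0 and a median log2 ratio of -0.10. Mat2a, which makes S-adenosylmethionine, stood at 189 CPM in the brequinar library and 202 CPM in the vehicle library. Mtr, methionine synthase, was closest to the threshold, at 52.4 CPM in the brequinar library and 103 CPM in the vehicle library, with a log2 ratio of -0.97 that passed -1 with scaling by total counts or upper quartile. Adi1, of methionine salvage, stood at 33.1 CPM in the brequinar library and 60.4 CPM in the vehicle library, and Ahcy, which clears S-adenosylhomocysteine, at 110 CPM in the brequinar library and 172 CPM in the vehicle library. Hypusine, an amino acid made from spermidine, is placed on eIF5A by Dhps and Dohh. Eif5a stood at 1442 CPM in the brequinar library and 1520 CPM in the vehicle library, and Dhps at 21.8 CPM in the brequinar library and 26.9 CPM in the vehicle library. Dohh (log2 ratio -0.13) and Eif5a2 (-0.72, at a mean of 1.18 CPM) were also within 2-fold, and 47.5% of the exon length of Dohh is shared with another gene model on the same strand. Atp13a2, a lysosomal polyamine exporter, had a log2 ratio of -0.59, at 35.3 CPM in the brequinar library and 53.1 CPM in the vehicle library.

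Of 12 measured genes that modify arginine residues in proteins, 2 were higher and 1 lower, beside 6.45% and 4.40% of all genes. These called genes were all peptidylarginine deiminases, which turn arginine residues into citrulline. Padi4, the deiminase of neutrophil chromatin, stood at 182 CPM in the brequinar library and 81.4 CPM in the vehicle library, 2.24-fold higher (interval 2.16 to 2.33). Padi3 stood at 16.2 CPM in the brequinar library and 7.66 CPM in the vehicle library, 2.11-fold higher (interval 1.87 to 2.4), and it was within 2-fold with scaling by total counts. Padi2 stood at 13.7 CPM in the brequinar library and 37.6 CPM in the vehicle library, 2.75-fold lower (interval 2.52 to 3.02). Padi4 against Padi2 was 13.3 in the brequinar library and 2.16 in the vehicle library, 6.18-fold higher (interval 5.60 to 6.82). Neutrophil markers, whose sums are given above, were higher in the same library as Padi4, and their part in it was not tested.

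**Figure D4:**
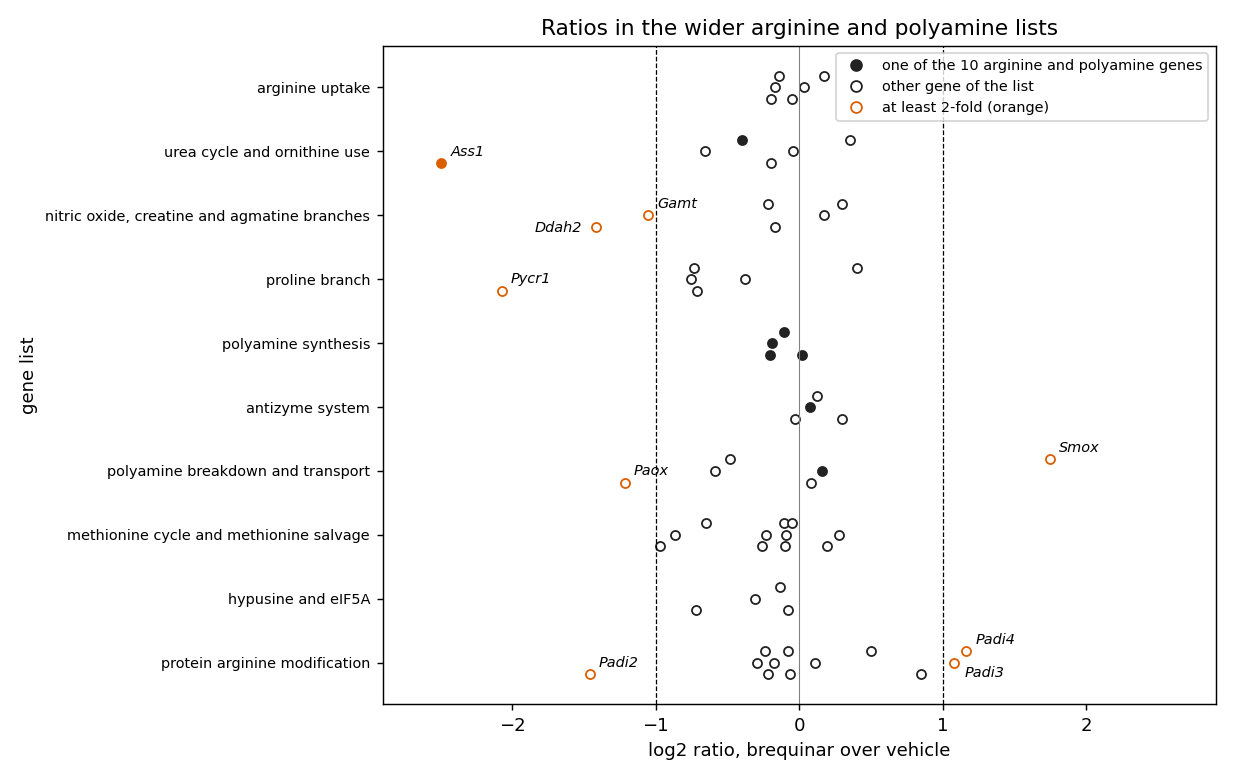
Log2 ratio of brequinar over vehicle for the genes past the filter in each of the 10 lists, filled for the 10 arginine and polyamine genes and open for others, orange at 2-fold or more (dashed lines). Vertical scatter within a list only separates the points. Ass1 (-2.49) and Pycr1 (-2.07) lie farthest left, Smox (1.74) farthest right, and the 4 polyamine synthesis genes lie close to 0.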

How the data were processed

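The authors deposited raw integer counts per gene, 1 library per treatment. Poly(A) RNA was made into strand-preserving libraries and read as 101-base pairs, per the labels' protocols. Per the submitters' processing notes, tools included STAR 2.4.2a and Picard 1.99 and 2.2.4, with build mm10. The program that counted reads, whether it used strand, and its annotation are not given in the sources used. Lines of the deposited count table that name no gene held 20.2% of reads in the brequinar library and 21.6% in the vehicle library and were left out.

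Symbols, coordinates and exon lengths came from GENCODE mouse release 21 (GRCm38), the assembly that mm10 names, and matched 44671 of 45318 identifiers. Library sizes were adjusted by TMM in edgeR 4.0.16 under R 4.3.3 (factors 0.969 for brequinar and 1.03 for vehicle), and log2 ratios used a prior count of 2. Fold changes and intervals used no prior count. DESeq2 1.42.0 size factors were an alternative, beside total counts, upper quartile, other filters, prior counts and thresholds. Copies were sought as 50-base words shared between annotated transcripts. Promoter windows came from RefSeq (GRCm38.p6). Python 3.11.15, numpy 2.4.6, pandas 2.3.3, scipy 1.17.1 and matplotlib 3.10.9 were used. The procedure was tested on simulated counts.

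The 10 genes, the 10 wider lists, the 8 marker lists and the alternatives were chosen with earlier results of these data known. Named genes were all 10 members and, of each wider list, every called gene and the 3 largest absolute log2 ratios, with a few taken whatever their values, such as Oaz1, Slc7a1 and Myc. Vti1b, Gm5424, Gm19680, Amd2, Nags, Cps1, Otc and the genes named under other observations were added after values were seen.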

Additional observations from a re-analysis of the deposited data

How the results depend on the processing

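Ass1 was called lower, and no other of the 10 genes lower, under all 10 alternatives run for calls. Without a filter Arg2 was called too, which gave 1 higher gene. The median log2 ratio of the 8 genes was -0.24 with total counts, beside -0.09 over all genes. With upper quartile it was -0.18, beside -0.03 over all genes. Over the 10 lists, lower and higher genes numbered 6 and 3, against 11 and 6 without a filter, 15 and 4 at 1.5-fold, 2 and 1 at 3-fold, and 3 and 3 at a mean of at least 5 CPM. Over all genes, 506 lower and 742 higher became 2074 and 2470 without a filter, 230 and 457 at 5 CPM, 1463 and 1456 at 1.5-fold, 161 and 390 at 3-fold, and 288 lower with the whole interval beyond 2-fold. With the longest transcript as length, 8 of 10 genes kept their rank per kilobase in the brequinar library and 5 in the vehicle library. Of 45 single-gene log2 ratios under other scalings and prior counts, 39 stayed inside the counting interval and 6 moved, all with total counts, which shift a log2 ratio by -0.092 before the prior count. With 1 library a group no library could be left out. No paired analysis was possible because each group has 1 library. Depth limits Arg1 and Arg2 most.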

Other observations

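Some list genes below the filter had large ratios at very low counts. Ddah1, which like Ddah2 breaks down methylarginines, had 1 count in the brequinar library and 19 counts in the vehicle library, 17.8-fold lower (interval 2.84 to 741). Slc7a9, a light chain of a cystine and cationic amino acid exchanger, had 2 counts in the brequinar library and 29 counts in the vehicle library, 13.6-fold lower (interval 3.44 to 118). Sat2, a homologue of Sat1, had 22 counts in the brequinar library and 49 counts in the vehicle library, 2.09-fold lower (interval 1.24 to 3.63). These genes were named after their values were seen, and no replicate exists for any of them.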
